A study of Mus musculus with 6 samples.

Results

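The 10 genes described here are NAD+ consuming enzymes outside the sirtuins and 2 genes that act beside them: the poly(ADP-ribose) polymerases Parp1, Parp2 and Parp3, the tankyrases Tnks and Tnks2, the NAD+ glycohydrolases Cd38, Bst1 and Sarm1, the nicotinamide methyltransferase Nnmt and the transhydrogenase Nnt. They were taken by symbol, and all 10 had a row among the 46951 rows of the tumor table and among the 46952 rows of the table of GICs (glioma-initiating cells, which can start a new glioma). C57BL/6 mice, young or old, received 1 line of mouse GICs by injection into the brain, tumors were taken when symptoms appeared, and GICs were grown again from the tumors. The 6 groups are a tumor from a young host, a tumor from an old host and a tumor of the group named NMN-before-Tumor, whose title also carries the word old, and GICs of the same 3 conditions. Each group is 1 library, so no comparison has a replicate check, and every difference below compares 2 libraries and not 2 conditions. All 6 libraries share the mouse strain and come from this line, listed as ms7080 for the tumors and 7080X1 for the GICs. No source used here states the ages of the hosts, how many mice each library holds, or how much NMN was given, by which route and for how long. NMN is not spelled out in the labels; it usually stands for nicotinamide mononucleotide, a direct precursor of NAD+.

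NAD+ carries electrons in metabolism and is also used up as a substrate. PARP enzymes and tankyrases move its ADP-ribose part onto proteins or DNA ends, Cd38, Bst1 and Sarm1 split or cyclize it, and each of these reactions frees nicotinamide. Nicotinamide is either built back into NMN and NAD+ or methylated by Nnmt, which takes the methyl group from S-adenosylmethionine and sends the product out of the pool. Nnt sits in the inner mitochondrial membrane and passes hydride from NADH to NADP+, which links the NAD+ pool to NADPH. In brain and glioma these genes are studied for DNA repair (Parp1 and Parp2), for the fall of NAD+ with age (Cd38), for the loss of axons (Sarm1) and for tumor cell metabolism (Nnmt).

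The promoters of the 2 members with the highest levels in every library, Parp1 and Tnks2, and of Cd38, the lowest in every library among the members with a promoter in the RefSeq table, are printed to show how unlike their CpG content is. Each is 300 bases of the gene's own strand in RefSeq on GRCm38.p6, from 250 before to 50 after the annotated start, with CpG dinucleotides in capitals.
Parp1 (chr1:180568641-180568940, plus strand): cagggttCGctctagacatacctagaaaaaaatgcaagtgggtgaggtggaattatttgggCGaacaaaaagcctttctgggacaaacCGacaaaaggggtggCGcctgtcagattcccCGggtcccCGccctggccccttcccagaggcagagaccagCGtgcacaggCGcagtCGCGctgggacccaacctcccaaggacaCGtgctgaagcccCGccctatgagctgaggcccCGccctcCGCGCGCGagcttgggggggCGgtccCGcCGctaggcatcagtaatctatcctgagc
Tnks2 (chr19:36833982-36834281, plus strand): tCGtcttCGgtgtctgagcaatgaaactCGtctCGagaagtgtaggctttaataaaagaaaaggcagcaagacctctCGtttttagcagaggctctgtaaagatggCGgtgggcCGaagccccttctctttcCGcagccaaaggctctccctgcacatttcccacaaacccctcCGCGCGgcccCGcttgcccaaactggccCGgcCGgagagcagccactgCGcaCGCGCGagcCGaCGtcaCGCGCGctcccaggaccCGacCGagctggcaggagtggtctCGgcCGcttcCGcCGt
Cd38 (chr5:43868559-43868858, plus strand): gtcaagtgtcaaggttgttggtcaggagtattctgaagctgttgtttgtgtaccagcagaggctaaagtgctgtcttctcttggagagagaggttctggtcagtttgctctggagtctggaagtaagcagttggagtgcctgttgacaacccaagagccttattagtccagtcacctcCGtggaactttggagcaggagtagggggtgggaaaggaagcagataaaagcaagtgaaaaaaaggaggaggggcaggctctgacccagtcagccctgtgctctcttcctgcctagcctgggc
The Parp1 window held 20 CpG, the Tnks2 window 29 and the Cd38 window 1. Over the 27025 promoters of the table the median was 7 CpG, and 14.6% of them held as few as Cd38 or fewer, while 87.3% held fewer than Tnks2. The other members with a promoter in the table were Parp2 with 25 CpG, Parp3 with 16 and Sarm1 with 15, so 6 of the 10 members were matched. The GC box GGGCGG, searched on both strands, occurred 4 times in the Parp1 window, 1 time in those of Parp2 and Sarm1, and not in those of Parp3, Tnks2 and Cd38. It was present in 35.9% of all promoters of that length.

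The Parp1 row of both tables is shared with the microRNA gene Mir6904, which lies inside the Parp1 locus on the same strand. Its mature RNAs are shown, with the seed (bases 2 to 8) in capitals, because they are the other gene named in that row.
mmu-miR-6904-5p: uCCUGGGGuuagaguugagugg
mmu-miR-6904-3p: uCUGAUCUcuuaccccag
The 5p RNA spans positions 180587206 to 180587227 and the 3p RNA positions 180587243 to 180587260 of chromosome 1. Neither lies in an annotated Parp1 exon, and the whole microRNA gene shares 7 exon bases with Parp1, so the row is read here as Parp1.

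Levels are FPKM as deposited, fragments scaled by transcript length and library size, and differences are taken on log2 of FPKM plus a pseudocount of 1, which understates the change of low genes. The depth recovered from the FPKM steps was 11.33 to 18.65 M fragments in the tumors and 9.653 to 12.67 M in the GICs, where M is mega. From it come 95% counting intervals of levels and of ratios, which cover counting error only. The tumors held markers of host cells, with a summed level of the 12 microglia markers of 122.1, 193.8 and 172.2 FPKM in young, old and NMN-before, and of 15 neuron markers of 396.9, 468.4 and 791.8 FPKM. In the GICs the microglia markers summed to 25.78 to 34.3 FPKM and the neuron markers to 103.9, 123 and 143.5 FPKM, of which Map2, a microtubule protein, was 94.1, 110 and 135 FPKM. T and NK cell markers summed to 0.0454 to 0.699 FPKM there and B and plasma cell markers to 0.478 to 2.36 FPKM. Olig1 and Olig2, markers of the oligodendrocyte lineage that gliomas share, were at 114 FPKM or more and 108 FPKM or more in every library. Sox10, another marker of that lineage, was at 7.30 to 36.3 FPKM in tumors and at 0 to 0.245 FPKM in GICs. In bulk RNA, fewer cells of a type and less RNA per cell cannot be told apart.

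Parp1 had the highest level of the 10 genes in every library and Tnks2 the next highest. In the tumors Parp2, Parp3 and Tnks followed at 14.8 to 20.2 FPKM, then Nnt at 8.25 to 9.95, Sarm1 at 4.24 to 5.03, Cd38 at 1.56 to 2.15, and Nnmt and Bst1 below 1 FPKM. Over the 3 tumors the ranges of Parp2 and Parp3 overlapped, as did those of Nnmt and Bst1, and the other neighbours in the order did not. In the GICs the order was Parp1, Tnks2, Tnks, Parp2, then Nnt and Parp3, which overlapped, then Sarm1, whose lowest library lay below the highest of Cd38, and then Nnmt, Cd38 and Bst1, which overlapped. The minimum of 1 FPKM in 1 of the 3 libraries of a table was met by 8 of 10 members in tumors, all but Bst1 and Nnmt, and by 7 of 10 in GICs, all but Cd38, Bst1 and Nnmt. Sarm1 met it in GICs only through the old and NMN-before libraries.

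**Figure D1:**
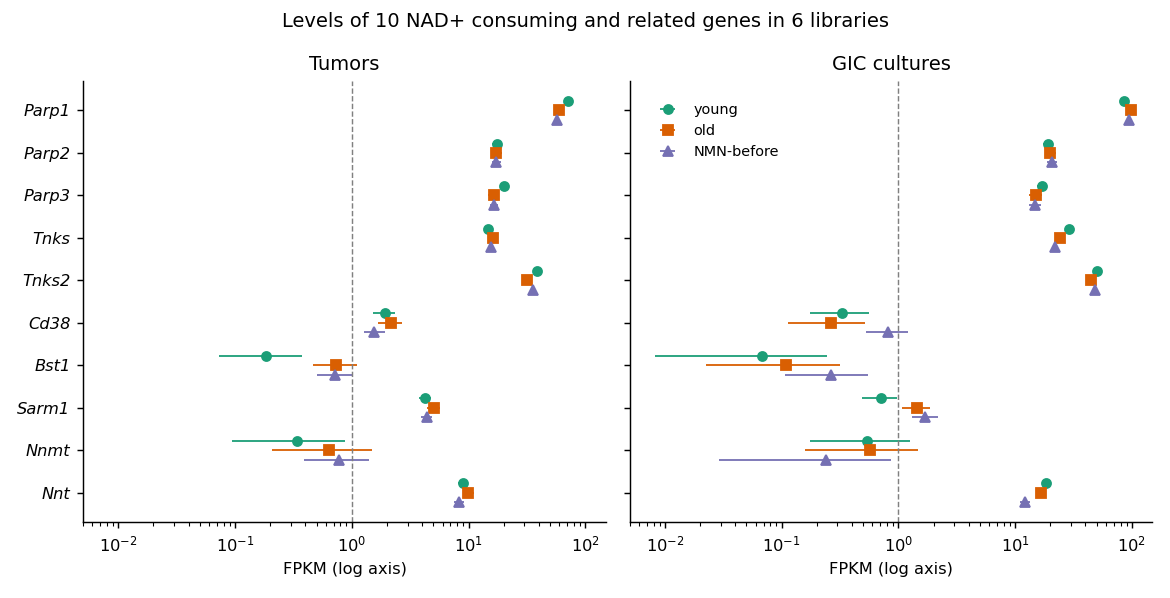
FPKM (log axis) of the 10 genes in the 3 tumors (left) and 3 GIC cultures (right), 1 library per point, with 95% counting intervals as bars and the minimum of 1 FPKM as a dashed line. The 5 PARP and tankyrase genes lie between 14.8 and 97.4 FPKM with short bars, and Bst1 and Nnmt lie below 1 FPKM with bars that span several fold.

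No member was 2-fold or more apart in any of the 6 comparisons on the log2(FPKM + 1) scale. Among all tested rows, 2.6% were 2-fold apart between the old and young tumors, 3.11% between NMN-before and old tumors and 3.77% between NMN-before and young tumors. In the GICs the shares were 2.8% for old against young, 5.57% for NMN-before against old and 6.62% for NMN-before against young. With shares this low, a count of 0 among 10 genes is near what the whole table shows. With a pseudocount of 0.1, 6 of the 60 member differences passed 2-fold, 1 of a gene that reached 1 FPKM (Sarm1) and 5 of Bst1 and Cd38 in tables where they lay under it. At that pseudocount 5.89% to 12.1% of all tested rows were 2-fold apart over the 6 comparisons, so these member differences do not stand out. The member differences ran from -0.30 (Parp1, NMN-before minus young, and Cd38, NMN-before minus old) to 0.56 (Bst1, old minus young) in tumors, and from -0.58 (Nnt) to 0.66 (Sarm1), both NMN-before minus young, in GICs.

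**Figure D2:**
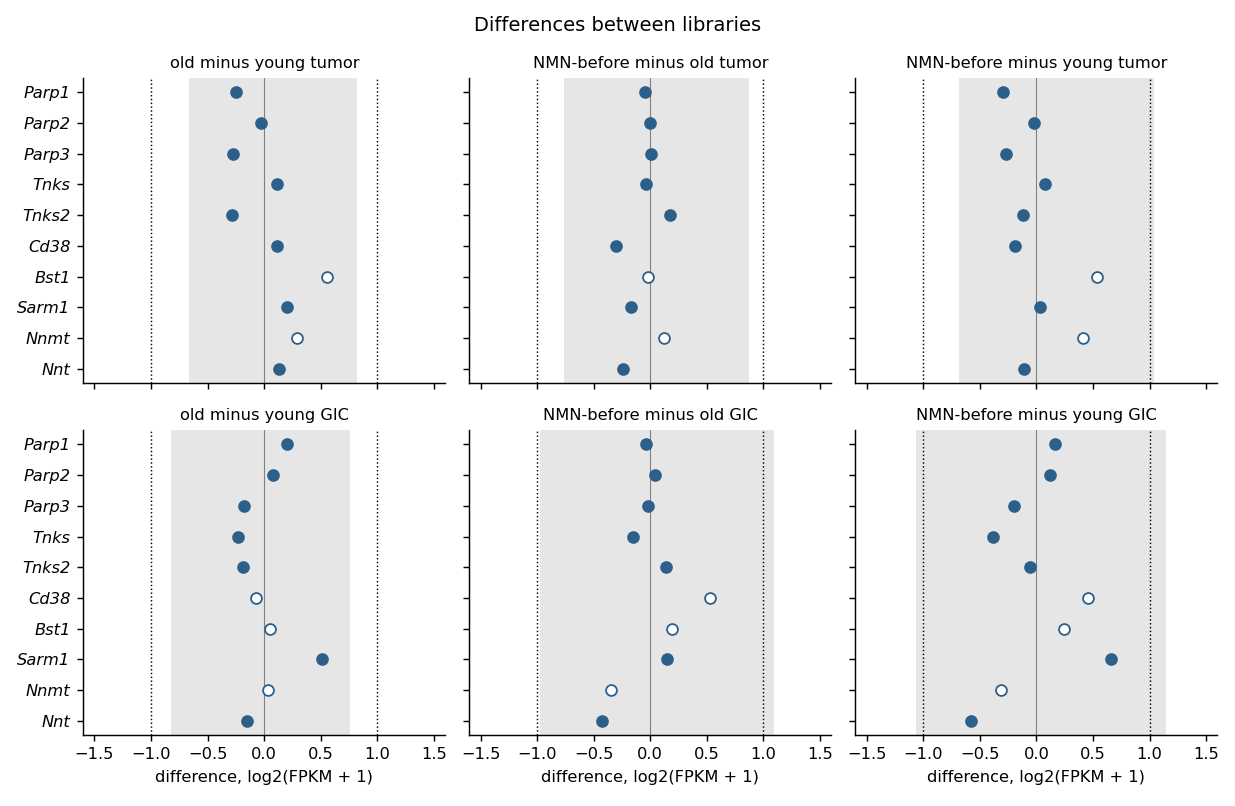
Differences in log2(FPKM + 1) of the 10 genes in the 6 comparisons, with open circles for genes under the minimum of 1 FPKM, dotted lines at 2-fold and a grey band over the central 95% of all tested rows. Every gene lies inside the band and inside the 2-fold lines in all 6 panels, and the widest scatter is in NMN-before minus young GICs, from -0.58 to 0.66.

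Parp1, the main sensor of DNA strand breaks and the source of most poly(ADP-ribose) after damage, lies at chr1:180568924-180601254 on the plus strand. This and the loci below are those of the deposited tables, on GRCm38. The deposited loci of Parp3, Tnks and Bst1 reach beyond the genes as GENCODE places them. The Parp1 level was 70.5 FPKM in the young tumor, 59.1 in the old tumor and 57.1 in the NMN-before tumor, and 84.8, 97.4 and 94.99 FPKM in young, old and NMN-before GICs. The young library was thus the highest of the tumors and the lowest of the GICs, and the old and NMN-before libraries were close to each other in both. The old to young ratio was 0.839 in tumors (counting interval 0.798 to 0.883) and 1.15 in GICs (1.10 to 1.20), so both differences exceeded counting error while both were small. The 15 mitosis genes, which mark dividing cells, were lower in the old than in the young tumor in 15 of 15 (median -0.34) and higher in the old than in the young GICs in 15 of 15 (median 0.42). They were higher in NMN-before than in old tumors in 15 of 15, where Parp1 differed by -0.05. Their part in the Parp1 values was not tested.

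Parp2, which works beside Parp1 at DNA breaks, lies at chr14:50807946-50821300 on the plus strand. It was at 17.6, 17.3 and 17.3 FPKM in tumors of the young, old and NMN-before groups and at 19.0, 20.1 and 20.7 FPKM in the GICs. All 6 counting intervals of its ratios included 1. The gap between its highest and lowest tumor was 0.03 on the log2 scale, and 0.579% of the 14335 tested rows had a smaller gap, or 0.702% of the 5411 rows within 2-fold of its mean level. The gap in GICs was 0.12, smaller in 6.67% of 12809 rows.

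Parp3, a mono-ADP-ribosyltransferase of double-strand break repair, lies at chr9:106470322-106485424 on the minus strand and shares 20 exon bases with Rrp9 on the opposite strand. Its levels were 20.2, 16.5 and 16.6 FPKM in tumors of the young, old and NMN-before groups and 17.1, 15.0 and 14.8 FPKM in the GICs. Because the use of strand in counting was not stated, fragments of Rrp9 may be part of the Parp3 values. The young library was the highest in both tables, by a ratio of old to young of 0.816 in tumors (0.712 to 0.934) and 0.874 in GICs (0.747 to 1.02), the latter within counting error. Parp1 was 3.30 to 4.0 times the level of Parp2 in tumors and 4.47 to 4.85 times in GICs, and it made up 40.2% to 48.5% of the summed FPKM of the 5 PARP and tankyrase genes in the 6 libraries.

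Tankyrases add poly(ADP-ribose) to proteins such as axins and the telomere protein TRF1, and so bear on Wnt signalling and telomeres. Tnks lies at chr8:34826460-34979874 on the minus strand and shares 635 exon bases with Gm9939 on the opposite strand. It was at 14.8, 16.1 and 15.6 FPKM in tumors of the young, old and NMN-before groups and at 28.7, 24.3 and 21.8 FPKM in the GICs. In the tumors the young library was the lowest, by an old to young ratio of 1.09 (1.02 to 1.16). In the GICs it was the highest, and the NMN-before to young ratio was 0.759 (0.717 to 0.803), a difference of -0.38. No source used here states whether strand was used in counting, so fragments of Gm9939 may be part of the Tnks values.

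Tnks2, at chr19:36834232-36893477 on the plus strand, was at 38.5, 31.4 and 35.5 FPKM in tumors of the young, old and NMN-before groups and at 50.7, 44.3 and 48.8 FPKM in the GICs. In both tables the young library was the highest, the old library the lowest and NMN-before lay between them. The old to young ratio was 0.816 in tumors (0.774 to 0.860) and 0.874 in GICs (0.832 to 0.917), and the NMN-before to old ratio was 1.13 (1.07 to 1.19) and 1.10 (1.05 to 1.16). The Tnks2 level was 1.96 to 2.61 times that of Tnks in tumors and 1.77 to 2.24 times in GICs. The 10 tankyrase substrates and partners showed no common direction between the old and young tumors, with 5 higher and 5 lower. In NMN-before minus old GICs 4 were higher and 6 lower (median -0.17), with the Wnt target Axin2 at 19.5 against 11.3 FPKM and Tnks1bp1 at 4.91 against 7.25 FPKM, and none was 2-fold apart in any comparison.

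The summed level of Parp1, Parp2, Parp3, Tnks and Tnks2 was 161.59, 140.38 and 142.13 FPKM in tumors of the young, old and NMN-before groups and 200.21, 201.01 and 201.05 FPKM in the GICs. The GIC sums lay within 1 FPKM of each other although Parp1 was higher and Tnks lower in the old and NMN-before cultures than in the young culture.

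The rest of the PARP family included genes 2-fold lower in the NMN-before GICs, while between old and young GICs none was 2-fold apart (4 higher and 4 lower, median 0.00). Of 10 listed genes 9 had a usable row, and 8 of these reached the minimum in GICs. Between NMN-before and old GICs 6 of the 8 were lower and 2 higher (median -0.45, against 0.00 for all tested rows, of which 49.4% were higher), and 2 were lower by 2-fold or more. Parp12, which is induced by interferon, was at 2.88, 2.82 and 0.265 FPKM in young, old and NMN-before GICs, and Parp9, an interferon-induced partner of a ubiquitin ligase, at 4.34, 3.41 and 1.05 FPKM. Parp12 reached the minimum only through the young and old libraries, so it could only count as lower in NMN-before. Tiparp, a target of the aryl hydrocarbon receptor, was at 34.8, 26.1 and 17.5 FPKM, and Parp8 at 9.85, 10.2 and 6.67 FPKM. Parp14, another interferon-induced member and the only listed gene with a row under the minimum in GICs, was at 0.509, 0.696 and 0.0706 FPKM. The NMN-before culture was the lowest for each of these 5 genes.

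In the tumors the same list was lower in NMN-before than in old in 7 of 9 genes (median -0.35), none by 2-fold. Parp12 was at 9.26, 10.8 and 6.82 FPKM in young, old and NMN-before hosts' tumors, Parp14 at 5.16, 4.30 and 2.67 FPKM and Parp4, the vault PARP, at 2.49, 3.22 and 1.74 FPKM. The 14 genes with a row in a list of interferon-stimulated genes without PARP genes summed to 72.28, 70.78 and 21.13 FPKM in young, old and NMN-before GICs and to 308.5, 209.7 and 173.7 FPKM in the tumors. In tumors 9 of the 14 were lower and 5 higher in NMN-before than in old (median -0.20), none by 2-fold. Between old and young tumors 13 of the 14 were lower (median -0.61), where the PARP list had 5 genes higher and 4 lower (median 0.06). Of the 8 that reached the minimum in GICs, 7 were lower in NMN-before than in old, 4 of them by 2-fold (median -0.83), with Cxcl10 at 12.4 against 50.4 FPKM, Usp18 at 0.751 against 5.44 FPKM and Oasl2 listed at 0 against 1.90 FPKM. Of these 8 genes 6 lay under 1 FPKM in NMN-before and reached the minimum only through the young or old library, which tilts the count towards lower. The part of the interferon-stimulated genes in the PARP family values was not tested.

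**Figure D3:**
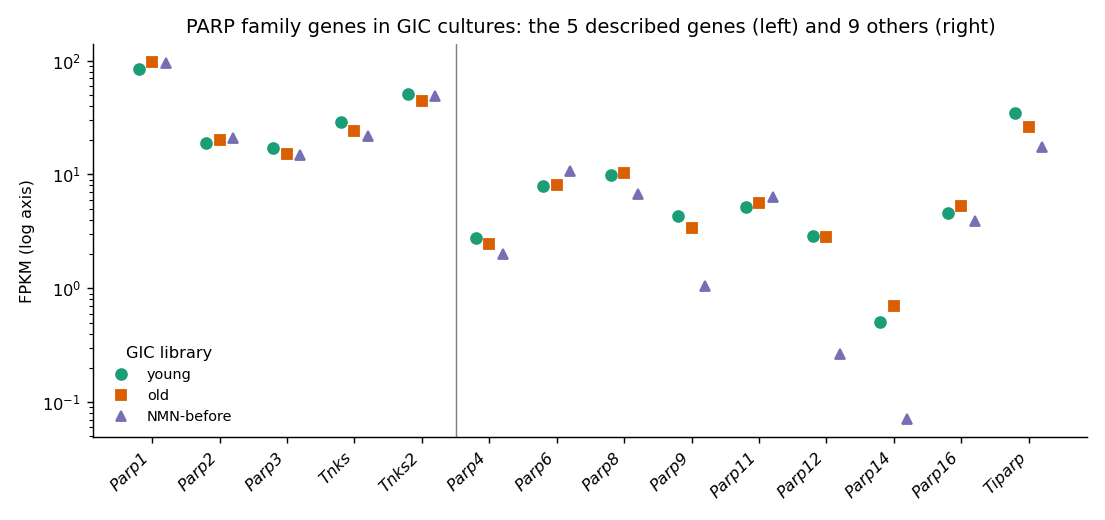
FPKM (log axis) of the 5 PARP and tankyrase genes described above (left of the line) and of 9 other PARP family genes (right) in the 3 GIC libraries, 1 library per point. The left-hand genes differ by at most 0.38 on the log2(FPKM + 1) scale, whereas Parp9, Parp12 and Parp14 are lowest in the NMN-before library, at 1.05, 0.265 and 0.0706 FPKM.

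Genes that act on ADP-ribose or on the breaks that Parp1 and Parp2 mark differed little in the tumors. Of the 9 genes of ADP-ribose removal, 4 were higher and 5 lower in the old than in the young tumor (median -0.02, and 0.05 with values rescaled to TPM), with Macrod2 at 7.84 against 14.9 FPKM and Adprm at 20.9 against 16.5 FPKM. Parg, the main poly(ADP-ribose) glycohydrolase, was at 13.8, 15.8 and 18.5 FPKM in tumors of the young, old and NMN-before groups and at 20.3, 22.3 and 19.0 FPKM in the GICs. No gene of that list was 2-fold apart in any comparison.

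Of the 9 genes of single-strand break repair, 7 were lower in the old than in the young tumor (median -0.14), among them the flap nuclease Fen1 at 16.1 against 19.1 FPKM and the scaffold Xrcc1 at 38.2 against 44.4 FPKM. Xrcc1 was at 43.8 FPKM in NMN-before GICs against 63.0 FPKM in young GICs. Hpf1, the factor that turns Parp1 and Parp2 to serine residues, was at 38.8, 35.0 and 43.3 FPKM in tumors of the young, old and NMN-before groups and at 56.7, 46.6 and 43.7 FPKM in the GICs.

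Cd38, a membrane enzyme of immune cells and astrocytes that splits NAD+ and also makes cyclic ADP-ribose, lies at chr5:43868553-43912375 on the plus strand. It was at 1.91, 2.15 and 1.56 FPKM in young, old and NMN-before hosts' tumors, from 89, 76 and 91 fragments, and at 0.328, 0.264 and 0.818 FPKM in the GICs, from 13, 8 and 25 fragments. In tumors NMN-before was the lowest, and its ratio to old was 0.725 with an interval of 0.529 to 0.998 that ended just short of 1. In GICs NMN-before was the highest, at 3.10 times old (1.35 to 7.89) and 2.497 times young (1.22 to 5.29), although all 3 levels were below the minimum of 1 FPKM. The old to young ratios were 1.13 in tumors (0.823 to 1.56) and 0.805 in GICs (0.290 to 2.10), both within counting error.

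Bst1, a relative of Cd38 on myeloid and stromal cells, lies next to it at chr5:43744615-43843986 on the plus strand and shares 98 exon bases with Fbxl5 on the opposite strand. Its tumor levels were 0.183 FPKM in young, 0.739 in old and 0.719 in NMN-before, from 7, 23 and 36 fragments. The young tumor was thus the lowest and the other two were close. The old to young ratio was 4.04 (1.81 to 12.04) and the NMN-before to young ratio 3.93 (1.82 to 11.02), the largest ratios of any member in tumors, while the difference of 0.56 on the log2(FPKM + 1) scale stayed under 2-fold because all levels were below 1 FPKM. In the GICs Bst1 rested on 2, 3 and 7 fragments, at 0.0673, 0.108 and 0.267 FPKM, and every interval of its ratios included 1. Because the use of strand in counting was not stated, fragments of Fbxl5 may be part of the Bst1 values.

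Markers of cells known to carry Cd38 and Bst1 also differed between the tumors. All 12 microglia markers were higher in the old than in the young tumor and all 12 were higher in NMN-before than in young. The 10 macrophage and monocyte markers summed to 173.5, 350.7 and 220.4 FPKM in young, old and NMN-before hosts' tumors. Most of each sum was Lyz2, at 128, 290 and 162 FPKM. All 8 that reached the minimum were higher in old than in young, while 4 were higher and 4 lower in NMN-before than in old (median -0.08). B and plasma cell markers summed to 11.09, 114.8 and 49.6 FPKM, most of it Igkc and Ighm, with Ms4a1, a B cell marker, at 0 in the old tumor. Neutrophil markers summed to 2.841, 3.25 and 6.324 FPKM, with Ly6g at 0 in the young and old tumors. In the GICs Siglech, a microglia marker, was at 0 in all 3 cultures. Astrocyte markers summed to 181.4, 194.4 and 455.1 FPKM in young, old and NMN-before GICs. Of the 11 that reached the minimum, 8 were higher and 3 lower in NMN-before than in old. In NMN-before Slc1a3 was at 207 FPKM and Aldoc at 170, while Aqp4 and Slc7a10 were at 0. Oligodendrocyte precursor markers summed to 329.7, 399.6 and 908.9 FPKM in the same order. Of the 7 that reached the minimum, 5 were higher and 2 lower in NMN-before than in old. The part of these cells or states in the Cd38 and Bst1 values was not tested.

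The channels that respond to cyclic ADP-ribose or ADP-ribose were low throughout. Of Ryr1, Ryr2, Ryr3 and Trpm2, 2 reached the minimum in each table. Trpm2, a calcium channel opened by ADP-ribose, was at 2.09, 3.68 and 3.01 FPKM in tumors of the young, old and NMN-before groups and at 1.70, 0.346 and 1.08 FPKM in the GICs. Between old and young GICs Trpm2 was lower by just over 2-fold (-1.0043). It reached the minimum in GICs only through the young and NMN-before libraries, so it could only count as lower in old. Ryr2, the ryanodine receptor best known from heart and brain, was at 0.949, 1.24 and 1.94 FPKM in the tumors and at 0.0331 to 0.0804 FPKM in the GICs.

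Sarm1, the NAD+ hydrolase whose activation destroys cut axons, lies at chr11:78472330-78497754 on the minus strand. It was at 4.24, 5.03 and 4.37 FPKM in tumors of the young, old and NMN-before groups and at 0.704, 1.43 and 1.70 FPKM in the GICs, from 35, 54 and 65 fragments. The tumors were close to each other, with all 3 intervals of the ratios including 1. In the GICs the young library was the lowest, and old was at 2.03 times its level (1.30 to 3.19) and NMN-before at 2.41 times (1.57 to 3.74). The NMN-before minus young difference of 0.66 was the largest in size of any member, and with a pseudocount of 0.1 it became 1.16, past 2-fold. At that pseudocount 12.1% of all tested rows were 2-fold apart in the same comparison. Sarm1 reached the minimum in GICs only through the old and NMN-before libraries, so it could only count as higher than young. At the main setting 73.2% of rows within 2-fold of its mean level had a smaller difference.

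Nmnat2, the NAD+ synthesizing enzyme of axons whose loss sets off Sarm1, was at 11.3, 12.8 and 13.2 FPKM in tumors of the young, old and NMN-before groups and at 2.16, 4.49 and 2.44 FPKM in the GICs. The Sarm1 level was 33.2% to 39.4% of the Nmnat2 level in the 3 tumors, 32.5% and 31.9% in young and old GICs, and 69.6% in NMN-before GICs. Of the 6 genes listed with axon degeneration, Nmnat2 among them, all 6 were higher in NMN-before than in old tumors (median 0.12), as were 51.5% of all rows, led by Stmn2 at 23.3 against 15.6 FPKM. Neuron markers were higher in 12 of 15 in that comparison, none of the Sarm1 differences in tumors exceeded counting error, and in GICs Stmn2 was at 0 in young and NMN-before. The part of neurons in the Sarm1 values was not tested.

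**Figure D4:**
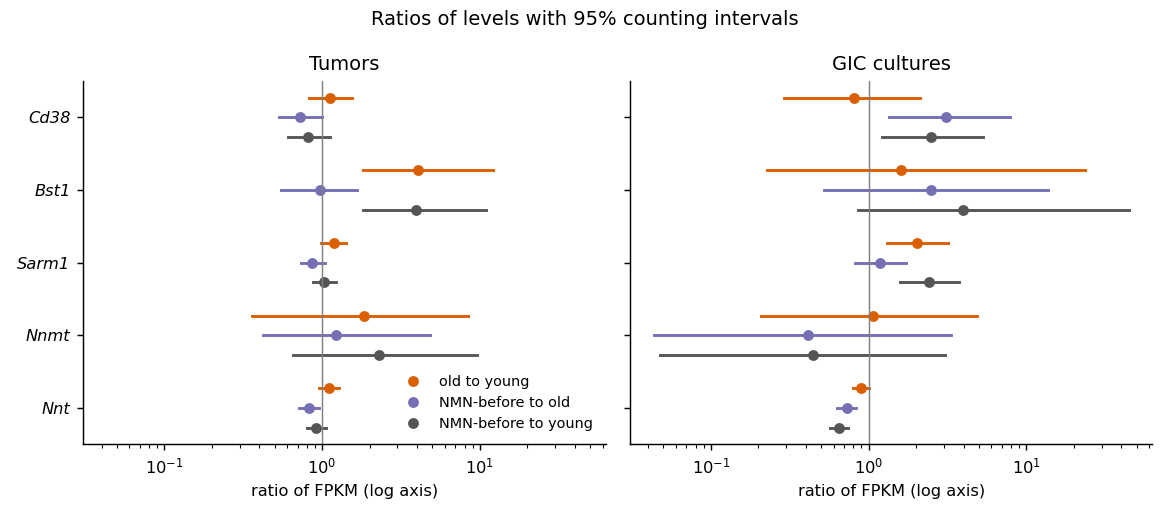
Ratios of FPKM (log axis) between libraries for Cd38, Bst1, Sarm1, Nnmt and Nnt, in tumors (left) and GICs (right), with 95% counting intervals as bars and a line at 1. Intervals clear of 1 are seen for Bst1 in tumors (4.04 and 3.93 against young), for Cd38 and Sarm1 in GICs, for Cd38 in tumors for NMN-before to old (0.725, 0.529 to 0.998) and for Nnt in both, and every Nnmt interval crosses 1.

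Nnmt, which methylates nicotinamide, lies at chr9:48591877-48605153 on the minus strand. It was at 0.342, 0.635 and 0.782 FPKM in young, old and NMN-before hosts' tumors, from 4, 5 and 11 fragments, and at 0.536, 0.575 and 0.238 FPKM in the GICs, from 5, 4 and 2 fragments. All 6 levels were below 1 FPKM, and all 6 intervals of the ratios included 1; the widest ran from 0.0433 to 3.34. A difference in Nnmt was therefore not detectable at this depth. Fibroblast markers, of a cell type known for Nnmt, summed to 140, 105.6 and 152.6 FPKM in tumors of the young, old and NMN-before groups and to 38.52, 36.67 and 34.61 FPKM in the GICs. In the tumors Pdgfra, also listed as an oligodendrocyte precursor marker, made up 72.6, 70.2 and 70.1 FPKM. Of the 9 that reached the minimum in tumors, 8 were lower and 1 higher in old than in young, and 8 were higher and 1 lower in NMN-before than in old. Some reached the minimum only through the young or NMN-before library, such as Col1a1 at 3.87, 0.737 and 4.50 FPKM, which tilts these counts. The part of fibroblasts in the Nnmt values was not tested.

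The genes that supply its methyl donor were far more abundant. Mat2a, which makes S-adenosylmethionine outside the liver, was at 273, 255 and 207 FPKM in tumors of the young, old and NMN-before groups and at 189, 199 and 233 FPKM in the GICs, and Nnmt was 0.102% to 0.377% of it. Mat1a, the liver form, was listed at 0 in all 6 libraries, as was Bhmt. Of the 14 genes of the methyl donor cycle and nicotinamide oxidation, 10 reached the minimum in each table. Aox1, an aldehyde oxidase that oxidizes methylated nicotinamide, was at 7.84, 5.49 and 13.2 FPKM in young, old and NMN-before GICs and was the only gene of the list that was 2-fold apart, in NMN-before minus old GICs (1.13). In the tumors it was at 2.29, 3.14 and 2.40 FPKM, and the list was 3 higher and 7 lower in old against young (median -0.02, and 0.04 with values rescaled to TPM).

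Nnt lies at chr13:119335448-119408997 on the minus strand, where GENCODE places 2 overlapping protein-coding gene models of that name. It was at 8.99, 9.95 and 8.25 FPKM in tumors of the young, old and NMN-before groups and at 18.5, 16.6 and 12.1 FPKM in the GICs. NMN-before was the lowest library in both tables. Its ratio to old was 0.829 in tumors (0.719 to 0.958) and 0.728 in GICs (0.632 to 0.837), and its ratio to young was 0.918 in tumors (0.802 to 1.05) and 0.652 in GICs (0.572 to 0.742). The J substrain of C57BL/6 carries an in-frame deletion of several Nnt exons. The labels give C57BL/6 with no substrain, and a level summed over the gene does not show which allele was present.

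The other genes of NADPH supply had medians of Nnt's sign in some comparisons and of the other sign in others. Between NMN-before and old GICs, where Nnt differed by -0.43, 8 of the 12 NADPH genes were lower and 4 higher (median -0.18). Between old and young GICs, where Nnt differed by -0.15, 11 of the 12 NADPH genes were higher (median 0.24, against 0.01 for all rows, of which 51.5% were higher), with Idh1 at 51.6 against 28.7 FPKM, G6pdx, the first enzyme of the pentose phosphate pathway, at 62.4 against 35.2 FPKM and Idh2 at 116 against 74.7 FPKM. Between NMN-before and young GICs 8 of 12 were higher (median 0.15), and Idh1, at 60.0 against 28.7 FPKM, was the only one 2-fold apart. Between NMN-before and old tumors 5 were higher and 7 lower (median -0.08, Nnt -0.24), with Glud1 at 95.1 against 161 FPKM. Between NMN-before and young tumors 8 were lower (median -0.21, Nnt -0.11).

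Of genes that make or carry NAD+, 7 of the 16 synthesis genes with a row reached the minimum in each table. Between NMN-before and old GICs 6 of these 7 were lower (median -0.35), with Nmrk1, a nicotinamide riboside kinase, at 3.15 against 4.47 FPKM and Nmnat1, the nuclear enzyme, at 8.45 against 11.005 FPKM. The sirtuins, the other large class of NAD+ consumers, had 4 of 6 genes higher and 2 lower in that comparison (median 0.31). The 2 lower genes had the largest differences, Sirt1 at 7.08 against 11.9 FPKM and Sirt2 at 30.8 against 44.7 FPKM. Sirt6 was at 2.93, 7.14 and 9.84 FPKM in young, old and NMN-before GICs, 2-fold higher than young in both old and NMN-before. Of 8 measured genes that handle NMN and NAD+ outside the cell or in mitochondria, 7 were lower in NMN-before than in old GICs (median -0.10), and Entpd1, an ectonucleotidase, was at 1.53, 4.51 and 1.26 FPKM.

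Over the 3 libraries of a table, the gap between the highest and lowest library was 0.31 for the median tested row in tumors and 0.42 in GICs. In tumors the members' gaps ran from 0.03 for Parp2 and 0.11 for Tnks to 0.41 for Nnmt and 0.56 for Bst1. Both lie under the minimum, and among tested rows within 2-fold of their mean levels 29% and 41.3% had smaller gaps. In GICs they ran from 0.12 for Parp2 to 0.58 for Nnt and 0.66 for Sarm1, larger than in 68.4% and 75.0% of rows. Among rows within 2-fold of the same mean level the shares were 74.8% for Nnt and 57.4% for Sarm1. Counting intervals of the ratio did not include 1 for 5, 3 and 4 of the 10 members in tumors (old to young, NMN-before to old, NMN-before to young) and for 4, 4 and 5 in GICs. Among tested rows of 1 protein-coding gene the shares were 43.8%, 47.7% and 52.7% in tumors and 44.8%, 56.4% and 60.5% in GICs, so the members' counts were near or below those of the tables. For genes with many fragments an interval clear of 1 takes only a small difference.

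**Figure D5:**
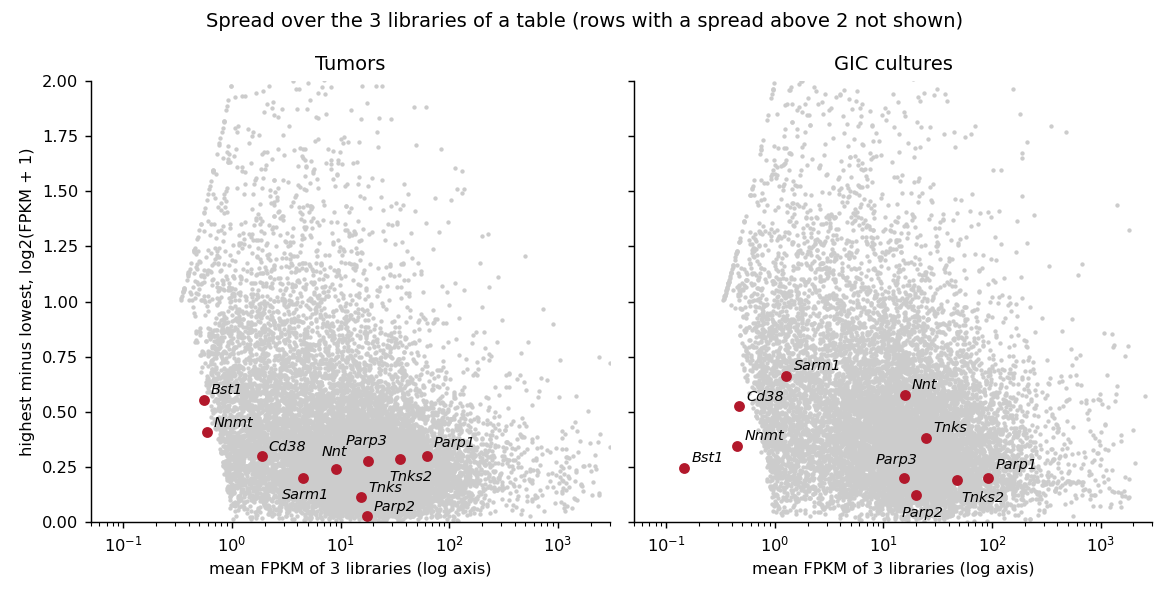
Gap between the highest and lowest of the 3 libraries in log2(FPKM + 1) against mean FPKM (log axis) for all tested rows (grey) and the 10 genes (red, named), in tumors (left) and GICs (right). The members lie among the other rows, with Parp2 at the lower edge in tumors (0.03) and Sarm1 and Nnt in the upper part in GICs (0.66 and 0.58).

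The tables of tumors and GICs were treated as normalized separately, so levels set across them are a description. For 5 members, Parp1, Parp2, Tnks, Tnks2 and Nnt, all 3 GICs were above all 3 tumors. For 2, Cd38 and Sarm1, all 3 tumors were above all 3 GICs, and for Parp3, Bst1 and Nnmt the levels overlapped. Among the 14884 rows tested in either table, 23.6% had all GICs above all tumors and 37.4% had all tumors above all GICs. The median tumor level was 5.83 times the median GIC level for Cd38 and 3.05 times for Sarm1, and it was 0.542 times for Nnt and 0.623 times for Parp1. Parp1 ranked within the highest 5.13% to 8.03% of rows above 0 in every library, and Cd38 at 60.5% to 61.1% in tumors and 68.4% to 78.9% in GICs. Mitosis genes summed to 499.8 to 670.1 FPKM in tumors and 973.3 to 1296 FPKM in GICs, and the summed microglia and neuron markers given above were lower in every GIC culture than in every tumor. The part of dividing cells and of host cells in these levels was not tested.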

How the data were processed

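RNA was measured in 6 libraries, 1 for each group. Per the labels' protocols, total RNA was depleted of ribosomal RNA, made into stranded libraries and sequenced in read pairs. The submitters' processing notes name GRCm38, Cuffdiff, Cufflinks 2.2.1, STAR 2.5.4b, Trim Galore 0.6.2 and bcl2fastq 1.8.4. The authors deposited FPKM values in 1 table for the tumors and 1 for the GICs. The annotation, the normalization mode and the use of strand were not stated in those notes or the labels.

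Differences of log2(FPKM + 1) were taken within a table among rows that reached 1 FPKM in any of its 3 libraries (14335 rows in tumors, 12809 in GICs), and 2-fold or more was a rule of size. With 1 library per group no test was possible. Whole fragments were recovered from FPKM steps of genes with 1 transcript of 1500 to 12000 bases (96.45% to 97.85% whole within 0.05), assuming GENCODE M21 lengths. Intervals are Poisson for levels and Clopper-Pearson for ratios, use the shortest coding transcript, and were tested on simulated data. A listed gene was used where its row names no other protein-coding gene, which left out, among others, Parp10, Afmid, Sirt7, Klrb1c and S100a4; Tubb3 and Chi3l1 had no row. All 10 members were named, and of other lists up to 4 genes with the largest differences in the comparison described, except Parp14 in GICs, Parg, Hpf1, Nmnat2, Mat2a, Mat1a, Bhmt and single markers, which were chosen after their values were seen; single values of a few listed genes are not reported here. A rule for naming genes of like pattern applied to members 2-fold apart, of which there were 0. Members and lists were chosen with earlier results of these data known. Alternatives were pseudocounts of 0.1 and 0.5, no filter, a filter of 5 FPKM, median-of-ratios scaling and rescaling to TPM. Python 3.11.15, numpy 2.4.6, pandas 2.3.3 and scipy 1.17.1 were used.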

Additional observations from a re-analysis of the deposited data

Results flagged for a closer look

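For 3 members a difference in the tumors and the same difference in the GICs had opposite signs. With 1 library per group none of these contrasts was tested, and only cases where both counting intervals were clear of 1 were taken. Parp1 differed between old and young by -0.25 in tumors and 0.20 in GICs on the log2(FPKM + 1) scale, a gap of -0.45, and between NMN-before and young by -0.30 in tumors and 0.16 in GICs, a gap of -0.46. Tnks differed between old and young by 0.11 in tumors and -0.23 in GICs, a gap of 0.34. Cd38 differed between NMN-before and old by -0.30 in tumors and 0.52 in GICs, a gap of -0.82. The Cd38 values rest on 76 and 91 fragments in the tumors and on 8 and 25 in the GICs, the Parp1 and Tnks values on 1639 fragments or more. All Cd38 levels in the GICs were below the minimum of 1 FPKM, and the Cd38 interval in tumors ended at 0.998.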

How the results depend on the processing

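No paired analysis was possible because each group is 1 library, and leaving out a replicate was not possible for the same reason. The count of members 2-fold apart was 0 in all 6 comparisons under no filter, a filter of 5 FPKM, a pseudocount of 0.5, median-of-ratios scaling and TPM scaling, and with a pseudocount of 0.1 it became 1 in NMN-before minus young GICs (Sarm1, 1.16). That count takes members at 1 FPKM or more; of those under it, with a pseudocount of 0.1, Bst1 was at 1.57 and 1.53 (old and NMN-before minus young tumor) and 1.13 (NMN-before minus young GICs) and Cd38 at 1.34 and 1.10 (NMN-before minus old and minus young GICs). Of 60 member differences, 60 kept their sign under pseudocounts of 0.1 and 0.5, 59 under median-of-ratios scaling and 57 under TPM scaling, and 39 of the 39 that could be computed did so at 5 FPKM. Those that changed sign were near 0: NMN-before minus old tumor for Parp2 (0.0016, and -0.0018 or -0.0479 under the scalings) and Parp3 (0.0078, and -0.0415), and old minus young tumor for Parp2 (-0.0259, and 0.039). The share of all rows 2-fold apart, 2.6% to 6.62% over the 6 comparisons, was 5.89% to 12.1% with a pseudocount of 0.1, 3.83% to 9.2% with 0.5, 1.48% to 5.54% at 5 FPKM and 4.56% to 10.1% under TPM scaling. Among rows 2-fold apart between NMN-before and young GICs, 54.1% were higher in NMN-before, and 42.5% under TPM scaling; no scaling moved the median of all rows by over 0.1. Of 150 list medians, 12 changed sign under TPM scaling and 17 with no filter. Depth limits Nnmt, Bst1 and, in GICs, Cd38.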
